A study of Mus musculus with 6 samples.

Results

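The laminin chains and integrin subunits expressed in mouse gastrocnemius (GAS) muscle were compared between WT and Sirt6 KO animals by RNA-seq. The genes were taken by their symbols, and 37 of the 24532 genes in the table had the name of a numbered laminin α, β or γ chain, an integrin α subunit or a numbered integrin β subunit. Of these, 32 had 60 or more counts summed over the 6 libraries, and these 32 are the genes described here (10 laminin chains and 22 integrin subunits). All 32 passed the filter on low counts that left 13801 genes for testing. Itgal, just above the threshold, had 88 summed counts. The genes just below it were Itgae with 56 and Itgax with 54, and Itgb8 had 42. Lama1 and Itgad were counted at 0 in every library.

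The WT group held 3 Sirt6 flox/flox mice and the Sirt6 KO group held 3 Myl1-Cre; Sirt6 flox/flox mice, so every animal carried the floxed Sirt6 allele. All were male C57BL/6 mice of 20 weeks, with 1 library of whole GAS muscle per animal. The Myl1 promoter drives Cre mainly in fast muscle fibers, and the vessels, nerves, connective tissue and satellite cells of the muscle are not its target. The study asked which genes of the muscle change when its fibers lack Sirt6, the nuclear deacetylase.

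Basement membranes are thin protein sheets that wrap each muscle fiber and each capillary, and laminins are their scaffold. A laminin is a trimer of 1 α, 1 β and 1 γ chain. Laminin-211 (α2, β1, γ1) is the main trimer around the muscle fiber, the β2 chain is known for the neuromuscular and myotendinous junctions, and α4 and α5 for vessels and the junction. Integrins are α/β pairs in the cell membrane that bind laminin, collagen, fibronectin and other matrix proteins outside the cell and are linked to actin inside it. The pair α7β1 is the laminin receptor of the muscle fiber. Loss of laminin α2 or of integrin α7 causes congenital muscle disease.

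Levels are given as normalized CPM (counts scaled to library size, with TMM factors) in the order of replicates 1, 2 and 3, and levels of different genes are compared only in TPM, which is scaled to gene length. Log2 fold changes (Sirt6 KO minus WT) and their standard errors (SE) are from edgeR's quasi-likelihood test, and adjusted p is its Benjamini-Hochberg value over the 13801 genes tested. A gene is called higher or lower where adjusted p was under 0.05.

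The libraries held between 44845763 and 63016899 counts, and 1 count corresponded to 0.0165 to 0.0212 normalized CPM. Sirt6 itself went against the labels. It was at 2.77, 2.23 and 2.88 normalized CPM in WT, whereas Sirt6 KO libraries had 7.81, 7.44 and 6.68 (log2 fold change 1.48, SE 0.17, adjusted p = 0.0113). Directions below therefore refer to the labels, and an exchange of the 2 groups, which was not tested, would reverse every one of them. Myh4, the myosin of the fastest fibers, did not separate the groups (log2 fold change 0.41, SE 0.35, adjusted p = 0.427). The fiber genes Acta1, Ckm, Myh4, Myh1, Tnnt3 and Pvalb together gave 123700 to 205300 normalized CPM per library. WT library 3 stood apart from WT libraries 1 and 2 in several ways. It held 63016899 counts, against 44845763 and 44938927. Its erythroid markers summed to 46.6 normalized CPM, against 297 and 291 in WT libraries 1 and 2. Its adipocyte markers summed to 4.45, against 43.9 and 52.5. It also stood apart in genes of slow fibers. These were read as a list of 7 slow fiber genes (Myh7, Myh2, Tnni1, Tnnc1, Tnnt1, Myl2 and Myl3). Their summed level was 6279, 7365 and 1308 normalized CPM in WT and 1505, 4236 and 1891 in Sirt6 KO. In this sum 2 WT libraries and Sirt6 KO library 2 were the high ones. Most of it was Myh2, the IIa myosin, which the study lists with slow fiber genes. Myh2 was at 3732, 5223 and 1256 in WT and 1313, 2694 and 1571 in Sirt6 KO. Myh7, the type I myosin, was at 1138, 958 and 21.7 in WT and 100, 720 and 163 in Sirt6 KO. Fold changes also ran with base composition: across 13271 genes their Spearman correlation with the GC content of the transcript was 0.34. For this reason values without WT library 3 or after a GC correction stand beside the calls.

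Of the 32 genes, 7 were lower in Sirt6 KO (21.9%, against 8.39% of all genes tested) and 3 were higher (9.38%, against 7.85%). Together 10 were called, where 16.2% of all genes tested were. The share called higher was close to that of all genes. The 3 higher genes were Lamb2 (laminin β2), Lamc3 (laminin γ3) and Itga7 (integrin α7). The 7 lower genes were all integrin subunits, namely Itga1, Itga10, Itga5, Itga8, Itgav, Itga9 and Itgb3. The median log2 fold change was -0.38 over the 32 genes and -0.021 over all genes tested. The 2 families had medians on opposite sides of 0, with 0.11 over the 10 laminin chains and -0.40 over the 22 integrin subunits. The groups did not overlap in 13 of the 32 genes (40.6%), which was near the 40.0% of all genes tested. In 10 of these Sirt6 KO was lower and in 3 higher, against 19.6% and 20.3% of all genes. Without WT library 3, 10 of the 32 were lower and 4 higher, Itga4 being the added higher gene, while the shares of all genes then were 15.7% and 16.7%. In the fits without any other single library, 0 were lower and between 0 and 3 higher. The share of all genes called in those fits is not given here, so these counts cannot be set against it. After the GC correction 4 were lower and 3 higher, with 3.63% and 3.47% of all genes. The 3 higher genes had a median transcript GC content of 58.4%, the 7 lower ones 51.6% and all genes tested 49.8%, and the part of base composition in these calls was not tested beyond the correction.

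**Figure D1:**
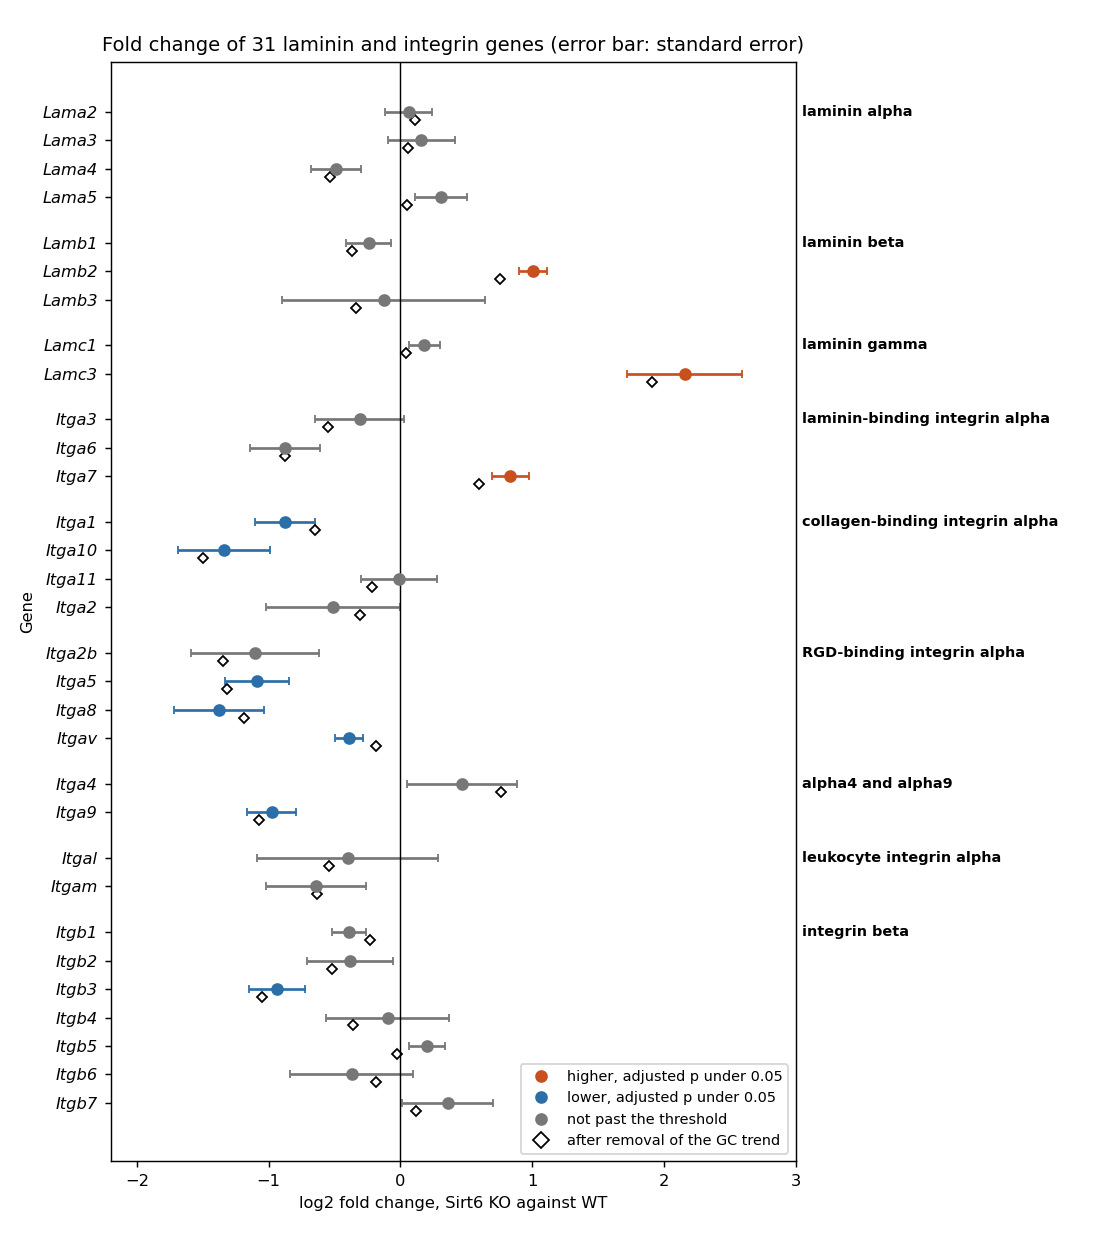
Log2 fold change (Sirt6 KO against WT, x axis) of 31 laminin and integrin genes, grouped by role (y axis), as points with bars of 1 SE from edgeR, colored where adjusted p was under 0.05, and open diamonds for the value after the GC correction. Lamb2, Lamc3 and Itga7 lie to the right of 0 and 7 integrin subunits to the left, and the other 21 genes plotted, in gray, did not pass.

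Promoter windows (250 bases before to 50 after the annotated start, RefSeq, GRCm38.p6) were at hand for 21 of the 32 genes, and in 14 of these the window lay at the 5′ end of the gene. The windows of Lamb2 and Itga5 are printed, because each had the smallest adjusted p of its direction among the called genes with such a window. Capitals mark a cAMP response element half-site (TGACG or its complement CGTCA), which was searched because the study concerns the factor CREB, or a GC box (GGGCGG or CCGCCC). Lamb2 lies at chr9:108479847-108490530 and its window is chr9:108479612-108479911 on the plus strand. Itga5 lies at chr15:103344286-103366791 and its window is chr15:103366742-103367041 on the minus strand.
Lamb2: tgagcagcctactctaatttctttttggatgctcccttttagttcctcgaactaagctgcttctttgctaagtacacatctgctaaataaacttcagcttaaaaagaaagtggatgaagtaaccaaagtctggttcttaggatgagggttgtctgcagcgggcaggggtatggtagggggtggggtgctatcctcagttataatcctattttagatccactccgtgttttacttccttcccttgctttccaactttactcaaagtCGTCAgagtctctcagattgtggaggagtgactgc
Itga5: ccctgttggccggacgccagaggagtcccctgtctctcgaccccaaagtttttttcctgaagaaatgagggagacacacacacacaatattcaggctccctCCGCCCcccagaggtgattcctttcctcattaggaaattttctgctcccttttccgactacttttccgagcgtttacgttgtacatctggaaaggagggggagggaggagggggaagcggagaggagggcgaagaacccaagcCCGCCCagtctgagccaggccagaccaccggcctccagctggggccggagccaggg
The Lamb2 window held 1 CRE half-site and had a GC content of 44.0%. The Itga5 window held 2 GC boxes and had a GC content of 58.7%, against a median of 52.7% over all promoters. Both strands were searched and the motifs share no bases. The half-site was in 4 of the 14 windows and in 20.8% of 32851 promoters, and the GC box in 7 of the 14 and in 35.7%. The windows of Itga8, Itga10 and Itga1, which were also lower in Sirt6 KO, held neither motif. A match of letters is a description and shows no binding.

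Among the laminin β chains, Lamb2 was about 2-fold higher in Sirt6 KO. Lamb2 encodes β2, the chain of the synaptic laminins of the neuromuscular junction. Its level was 126, 128 and 121 normalized CPM in WT and 242, 261 and 248 in Sirt6 KO. The replicates of each group lay close together and the groups were far apart, with means of 125 ± 3.73 and 251 ± 9.76 (SD, n = 3). The log2 fold change was 1.01 (SE 0.10, edgeR adjusted p = 0.0110), a fold of 2.01, and it was 0.76 (adjusted p = 0.0218) after the GC correction. The fold change stayed between 0.98 and 1.03 when any 1 library was left out, and the call was lost without Sirt6 KO library 1 (adjusted p = 0.0589) or library 3 (adjusted p = 0.0650). Lamb1, the β1 chain of the main muscle laminin, was at 27.2, 25.4 and 18.8 normalized CPM in WT and 17.0, 21.0 and 22.4 in Sirt6 KO. The groups overlapped in Lamb1 (log2 fold change -0.24, SE 0.17, adjusted p = 0.351). Lamb3, a chain of epithelial laminin, was scarce, and its groups overlapped (log2 fold change -0.13, adjusted p = 0.920).

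The balance of the β chains moved with Lamb2. In TPM, Lamb2 made up 81.2%, 81.8% and 86.5% of the summed β chains in WT and 93.3%, 91.5% and 91.3% in Sirt6 KO. Lamb1 made up 17.1%, 15.8% and 13.2% in WT and 6.39%, 7.17% and 8.02% in Sirt6 KO. The ratio of Lamb2 to Lamb1 was 4.75, 5.17 and 6.58 in WT and 14.6, 12.8 and 11.4 in Sirt6 KO, with no overlap. An exact permutation test of this ratio gave p = 0.1, the smallest that 3 libraries against 3 allow, and the ratio was chosen after the values were seen. The summed β chains came to 66.1, 62.7 and 47.9 TPM in WT and 96.6, 101 and 95.9 in Sirt6 KO. The summed α chains overlapped between the groups at 23.1 to 34.0 TPM in WT and 25.3 to 29.4 in Sirt6 KO, and so did the summed γ chains at 24.0 to 36.1 and 29.9 to 33.2.

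**Figure D2:**
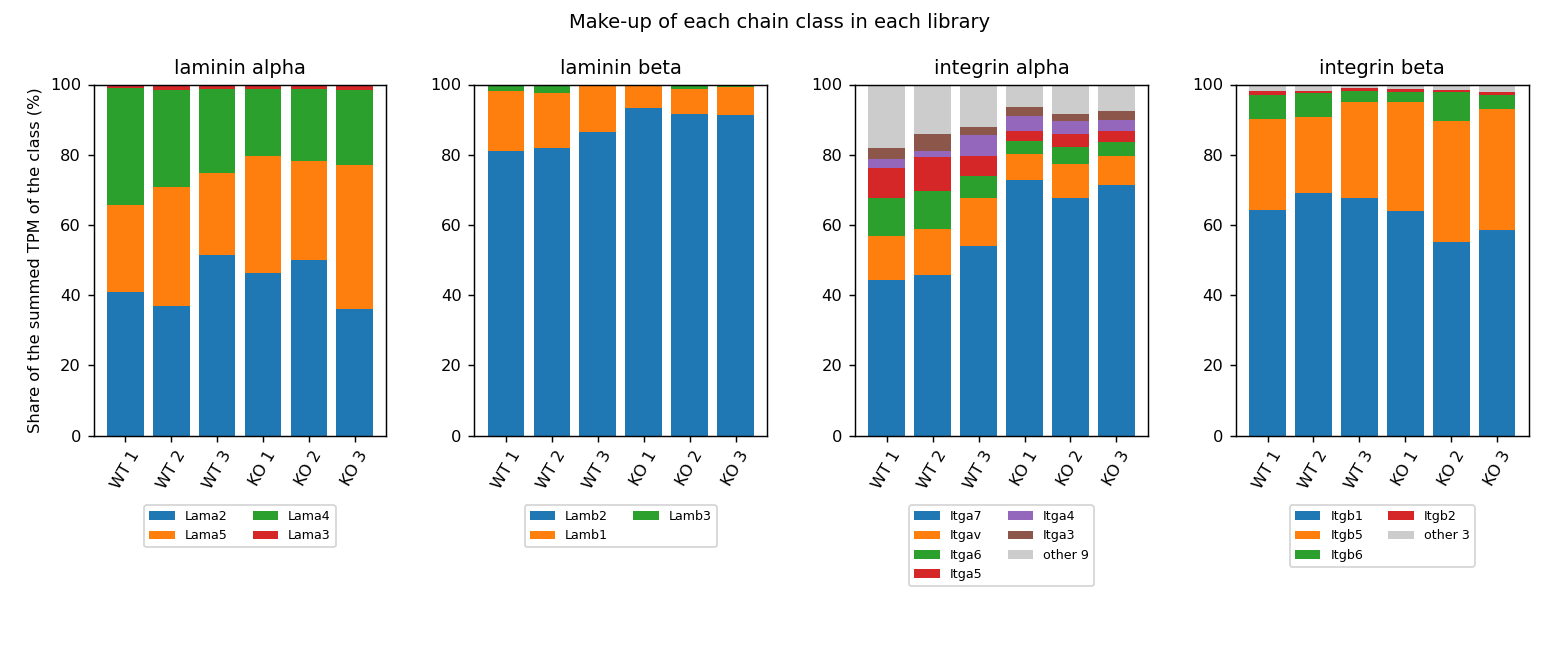
Share (%) of the summed TPM of the laminin α chains, laminin β chains, integrin α subunits and integrin β subunits that each gene took in each of the 6 libraries, as stacked bars that add up to 100. Lamb2 takes 91.3% to 93.3% of the β chains in Sirt6 KO and 81.2% to 86.5% in WT, and Itga7 takes 67.6% to 72.8% of the integrin α subunits in Sirt6 KO and 44.3% to 54.0% in WT.

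Of the 4 laminin α chains, 0 were called by edgeR, where 16.2% of all genes tested were. DESeq2 also called 0, where 13.0% of all genes were lower and 12.5% higher. Without adjustment 1 of the 4 had an edgeR p under 0.05, as had 4875 of the 13801 genes tested. Lama2, the α2 chain around every muscle fiber, was at 56.4, 50.1 and 59.6 normalized CPM in WT and 57.4, 71.4 and 44.7 in Sirt6 KO. Its groups overlapped fully (log2 fold change 0.062, SE 0.18, adjusted p = 0.827), and the sign turned without WT library 2 (-0.0041) or without Sirt6 KO library 2 (-0.10). Lama4, the α4 chain of capillary basement membranes, was at 28.6, 23.4 and 17.3 normalized CPM in WT and 14.8, 18.2 and 16.5 in Sirt6 KO. WT library 3 lay among the Sirt6 KO libraries, and the log2 fold change was -0.49 (SE 0.19, adjusted p = 0.117). Without WT library 3 the adjusted p of Lama4 was 0.0166. Lama5, the α5 chain of vessels and the neuromuscular junction, was at 39.9, 53.7 and 31.8 normalized CPM in WT and 48.2, 47.7 and 59.5 in Sirt6 KO, again with overlap (log2 fold change 0.31, SE 0.20, adjusted p = 0.2997, and 0.050 after the GC correction). Lama3, an epithelial chain, had a log2 fold change of 0.16. In TPM, Lama2 was the most abundant α chain in 5 of the 6 libraries, with 37.0% to 51.3% of the summed α chains in WT and 36.0% to 49.9% in Sirt6 KO. In Sirt6 KO library 3 Lama5 held 40.9% and Lama2 36.0%.

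Among the γ chains, Lamc1 carried nearly all of the message, with 94.9% to 96.9% of the summed γ TPM in each library. Lamc1 encodes γ1, the partner of both β1 and β2 in muscle. Its level was 109, 99.9 and 91.4 normalized CPM in WT and 105, 123 and 112 in Sirt6 KO, and the groups overlapped (log2 fold change 0.18, SE 0.12, adjusted p = 0.310, and 0.042 after the GC correction). The ratio of Lamb2 to Lamc1 in TPM ranged from 1.57 to 1.79 in WT and from 2.88 to 3.14 in Sirt6 KO (exact permutation p = 0.1, chosen after the values were seen).

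Lamc3, which encodes the γ3 chain (chr2:31887281-31949083), showed the largest fold of the 32 genes, at a low level. It had 9, 15 and 24 counts in WT and 89, 53 and 96 in Sirt6 KO, which are 0.180, 0.318 and 0.419 normalized CPM against 1.52, 0.874 and 1.74. The groups did not overlap. The fitted log2 fold change was 2.16 (SE 0.43, adjusted p = 0.0224), a fold of 4.46, and 1.91 (adjusted p = 0.0459) after the GC correction. It ranged from 1.90 to 2.46 with 1 library left out, and the call held without WT library 3 or Sirt6 KO library 2 and was lost without each of the other 4 libraries, with adjusted p up to 0.0961.

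**Figure D3:**
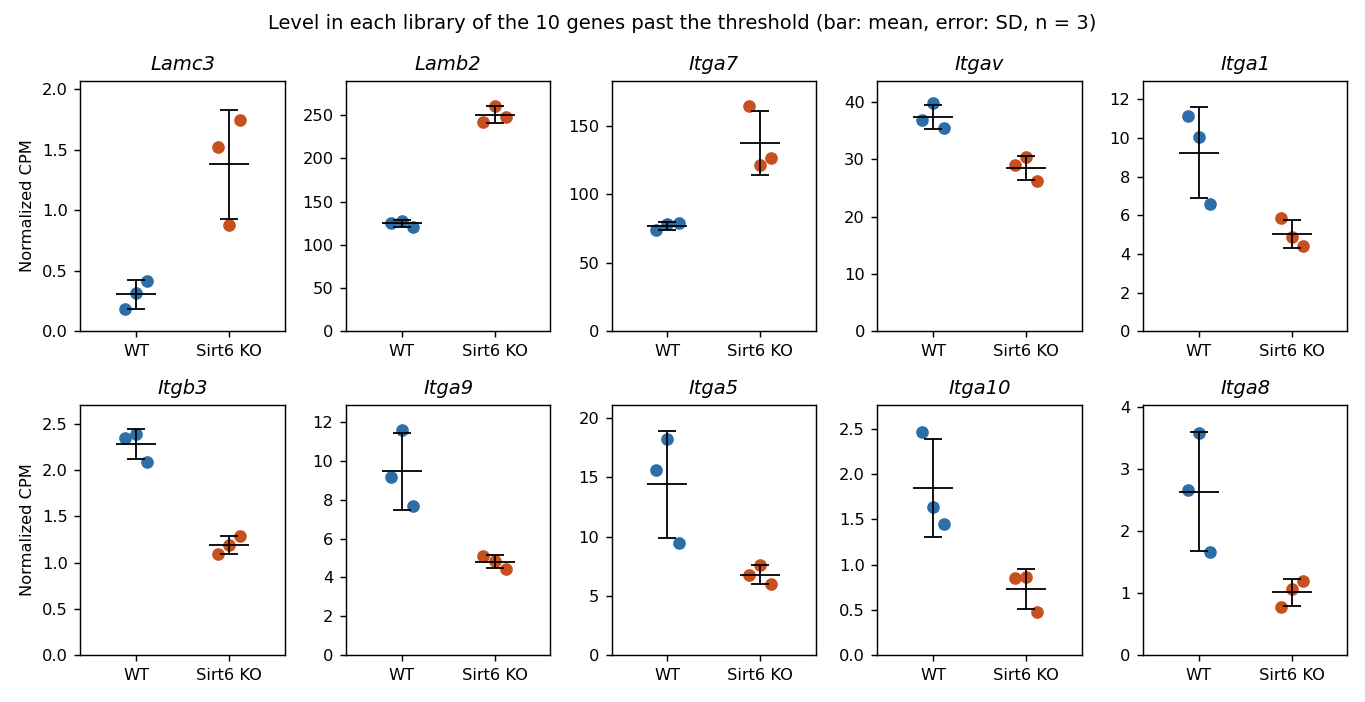
Normalized CPM (y axis, linear from 0) of the 10 genes with adjusted p under 0.05, 1 panel per gene, with 1 point per library, a line at the mean of each group and a bar of 1 SD (n = 3). Lamc3, Lamb2 and Itga7 lie higher in all 3 Sirt6 KO libraries, and the other 7 genes lie lower, with WT library 3, the rightmost WT point, nearest to Sirt6 KO in each of these 7.

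Of the 3 laminin-binding integrin α subunits, Itga7 was higher in Sirt6 KO. Itga7 encodes α7, which pairs with β1 at the fiber surface and is also found on satellite cells, the stem cells of muscle. It lies at chr10:128933421-128958286. Its level was 73.8, 78.3 and 79.2 normalized CPM in WT and 165, 121 and 127 in Sirt6 KO. The WT libraries were tight and every Sirt6 KO library lay above them, with library 1 the highest. It differed by a log2 fold change of 0.83 (SE 0.14, edgeR adjusted p = 0.0161), a fold of 1.78. After the GC correction it was 0.60 with an adjusted p of 0.0499, at the threshold. It ranged from 0.69 to 0.93 with 1 library left out. The call held without WT library 3 or Sirt6 KO library 2 and was lost without each of the other 4 libraries (adjusted p up to 0.0723). Markers of satellite cells moved with Itga7: Pax7, Myf5 and Cdh15, 3 of the 4 listed, were higher in Sirt6 KO (7.85% of all genes tested were). Their log2 fold changes were 1.28, 1.33 and 0.97. The fourth, Calcr, had -0.63 and did not pass (adjusted p = 0.256). After the GC correction Myf5 passed (adjusted p = 0.0301) and Pax7 (0.0651) and Cdh15 (0.0726) did not. With 1 library left out, the call held in 1 of 6 fits for Pax7 and in 2 of 6 for Myf5 and for Cdh15. The edgeR adjusted p reached 0.124, 0.0964 and 0.0941 in those fits. Pax7 had 21, 23 and 31 counts in WT. Their list (with Calcr) summed to 18.4 to 25.4 normalized CPM in WT and 33.5 to 45.1 in Sirt6 KO, without overlap. In whole muscle, more or fewer cells of a type and more or less RNA per cell cannot be told apart, and the part of satellite cells in the Itga7 level was not tested.

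Itga6, the α6 subunit of endothelial and Schwann cells, was at 26.6, 27.2 and 13.3 normalized CPM in WT and 13.0, 12.9 and 10.7 in Sirt6 KO. WT library 3 lay next to the Sirt6 KO libraries. The log2 fold change was -0.87 (SE 0.27, adjusted p = 0.0636), while the adjusted p was 0.00473 without WT library 3 and 0.0138 in DESeq2. Itga3, the α3 subunit, was at 6.48, 9.91 and 3.80 normalized CPM in WT and 6.54, 4.44 and 5.30 in Sirt6 KO. Its groups overlapped (log2 fold change -0.31, SE 0.34, adjusted p = 0.549), and the sign turned without WT library 2 (0.081).

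The make-up of the α subunits differed with Itga7. Itga7 made up 44.3%, 45.7% and 54.0% of the summed integrin α TPM in WT and 72.8%, 67.6% and 71.3% in Sirt6 KO. The share of Itgav was 12.6%, 13.2% and 13.8% in WT and 7.31%, 9.63% and 8.42% in Sirt6 KO. The summed α subunits themselves overlapped between the groups, with 70.5 to 99.5 TPM in WT and 87.6 to 118 in Sirt6 KO. The ratio of Itga7 to its partner Itgb1 was 0.317, 0.323 and 0.349 in WT and 0.824, 0.666 and 0.824 in Sirt6 KO. This ratio, also chosen after the values were seen, did not overlap between the groups (exact permutation p = 0.1).

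Of the 4 α subunits that bind the RGD motif of fibronectin and vitronectin, 3 were lower in Sirt6 KO (8.39% of all genes tested were) and the median log2 fold change was -1.10. Itga5 encodes α5, which with β1 forms the fibronectin receptor. It was at 15.6, 18.2 and 9.44 normalized CPM in WT and 6.73, 7.61 and 6.03 in Sirt6 KO, with no overlap and with WT library 3 the lowest of its group. The log2 fold change of Itga5 was -1.09 (SE 0.24, adjusted p = 0.0292) and -1.32 (adjusted p = 0.0324) after the GC correction. Itga8 encodes α8, a subunit of smooth muscle and other contractile cells (chr2:12106632-12301985). It was at 2.67, 3.59 and 1.66 normalized CPM in WT and 0.769, 1.07 and 1.20 in Sirt6 KO. The log2 fold change of Itga8 was -1.38 (SE 0.34, adjusted p = 0.0371), and after the GC correction it was -1.19 (adjusted p = 0.0726). Itgav encodes αv, the shared partner of several β subunits in vitronectin receptors and in the activation of latent TGF-β (chr2:83722303-83806917). It was at 36.9, 39.7 and 35.5 normalized CPM in WT and 29.0, 30.3 and 26.3 in Sirt6 KO. This was the smallest fold change of the called genes, -0.39 (SE 0.10, adjusted p = 0.0451), and after the GC correction it was -0.19 (adjusted p = 0.282). Itga2b, the αIIb subunit of platelets, ranged from 0.873 to 1.93 normalized CPM in WT and from 0.327 to 1.04 in Sirt6 KO (log2 fold change -1.10, SE 0.49, adjusted p = 0.151).

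The call on each of Itga5, Itga8 and Itgav was lost in 5 of the 6 fits that left out 1 library, and it held without WT library 3. Their adjusted p reached 0.114, 0.123 and 0.179 in those fits, while the log2 fold changes stayed below 0. Without WT library 3 the log2 fold change was -1.31 for Itga5, -1.62 for Itga8 and -0.42 for Itgav.

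Of the 4 collagen-binding α subunits, 2 were lower in Sirt6 KO (8.39% of all genes tested were). Itga1 encodes α1, a receptor for collagen IV found on vascular and connective tissue cells (chr13:114958079-115101964). Its level was 11.1, 10.03 and 6.58 normalized CPM in WT and 5.85, 4.88 and 4.39 in Sirt6 KO. The groups did not overlap, and the log2 fold change was -0.87 (SE 0.23, adjusted p = 0.0419), or -0.65 (adjusted p = 0.111) after the GC correction. The gene Pelo lies within the span of Itga1. Itga10 encodes α10, a collagen receptor known from cartilage and connective tissue (chr3:96645584-96664519). It was scarce, at 2.47, 1.63 and 1.45 normalized CPM in WT and 0.854, 0.858 and 0.472 in Sirt6 KO. Its log2 fold change was -1.34 (SE 0.35, adjusted p = 0.0424), and -1.50 (adjusted p = 0.0484) after the GC correction. Both calls held without WT library 3 and were lost without any 1 of the other 5 libraries, with adjusted p up to 0.146 for Itga1 and 0.135 for Itga10. Itga2 had a log2 fold change of -0.51 and Itga11 of -0.01, and neither passed.

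Itga9 encodes α9, which binds tenascin-C and osteopontin and is known in smooth muscle and lymphatic endothelium (chr9:118606709-118901003). It was lower in Sirt6 KO, at 9.16, 11.6 and 7.66 normalized CPM in WT and 5.13, 4.87 and 4.45 in Sirt6 KO. The groups were clearly apart, with means of 9.48 ± 1.99 and 4.81 ± 0.342 (SD, n = 3). The log2 fold change was -0.98 (SE 0.19, adjusted p = 0.0196), the smallest adjusted p of the 7 lower genes, and -1.07 (adjusted p = 0.0301) after the GC correction. As with the other 6, the call held without WT library 3 and was lost without any other 1 library (adjusted p up to 0.0890). Itga4, the α4 subunit of leukocytes and of developing muscle, varied widely, from 6.66 to 21.3 normalized CPM in WT and from 13.0 to 24.0 in Sirt6 KO (log2 fold change 0.47, adjusted p = 0.451). Without WT library 3 Itga4 was higher in Sirt6 KO (log2 fold change 1.05, adjusted p = 0.0462).

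The 2 leukocyte α subunits, Itgal and Itgam, had log2 fold changes of -0.40 (adjusted p = 0.709) and -0.64 (adjusted p = 0.268), and their partner Itgb2 had -0.38 (adjusted p = 0.430). The summed level of 7 macrophage markers was 36.9 to 77.6 normalized CPM in WT and 43.9 to 54.6 in Sirt6 KO. The list of T cell and pan-leukocyte markers summed to 1.32 to 4.19 normalized CPM per library, most of it from Ptprc, and 4 neutrophil markers to 0.244 to 0.799, with Ly6g at 0 throughout.

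Of the 7 β subunits, 1 was lower in Sirt6 KO (14.3%, against 8.39% of all genes tested). Itgb3 encodes β3, the partner of αv and of αIIb (chr11:104608000-104670476). It was at 2.35, 2.40 and 2.09 normalized CPM in WT and 1.09, 1.19 and 1.29 in Sirt6 KO. The replicates lay close together and the groups well apart, with a log2 fold change of -0.94 (SE 0.21, adjusted p = 0.0296), and -1.05 (adjusted p = 0.0380) after the GC correction. This call too held without WT library 3 and was lost without any other 1 library (adjusted p up to 0.106). The platelet markers summed to 2.10 to 3.81 normalized CPM in WT and 2.46 to 2.69 in Sirt6 KO, with Gp6 at 0 in every library and Pf4 the highest.

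Itgb1, the common β1 partner of the laminin, collagen and fibronectin receptors, had the highest mean TPM of the 32 genes in WT (128) and, with 90.03, stood beside Lamb2 (90.06) in Sirt6 KO. Its level was 243, 253 and 237 normalized CPM in WT and 208, 190 and 160 in Sirt6 KO. The groups did not overlap, but the log2 fold change of -0.39 (SE 0.13) did not pass (adjusted p = 0.0801, and no less than 0.0526 with 1 library left out). In DESeq2 Itgb1 passed (adjusted p = 0.0282), and after the GC correction its log2 fold change was -0.23 (adjusted p = 0.279). Itgb5, the β5 partner of αv, was at 76.4, 61.5 and 75.0 normalized CPM in WT and 78.3, 92.7 and 73.9 in Sirt6 KO, with overlapping groups (log2 fold change 0.20, adjusted p = 0.319, and -0.025 after the GC correction). Itgb4 and Itgb7 had log2 fold changes of -0.10 and 0.36 and did not pass.

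Itgb6, the β6 subunit that pairs with αv in the activation of TGF-β, split the libraries another way. It was at 30.6, 29.3 and 13.0 normalized CPM in WT and 11.5, 32.4 and 12.6 in Sirt6 KO. The high libraries were those with a high level of the slow fiber genes, WT libraries 1 and 2 and Sirt6 KO library 2. The spread within the groups exceeded the difference between them (log2 fold change -0.37, SE 0.47, adjusted p = 0.607). The same 3 libraries were the highest for Lamb3, at 1.93, 2.74 and 0.366 normalized CPM in WT and 0.530, 2.76 and 1.29 in Sirt6 KO. These are 2 of the 32 genes, picked after their values were seen over 6 libraries, and the part of fiber type in their levels was not tested.

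**Figure D4:**
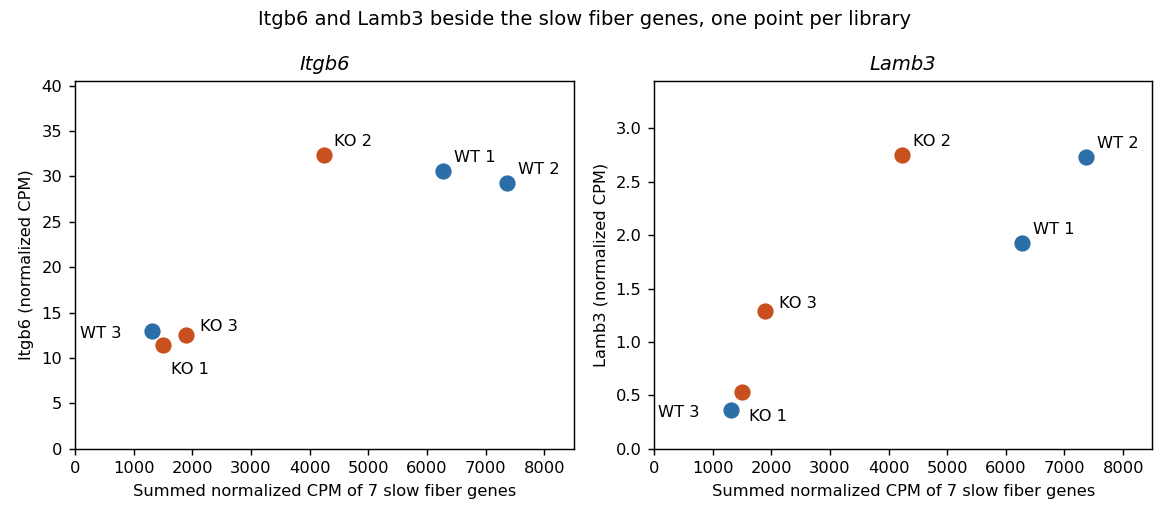
Normalized CPM of Itgb6 and Lamb3 (y axes) against the summed normalized CPM of 7 slow fiber genes, most of it from Myh2 (x axes). Each library is 1 labelled point, WT in blue and Sirt6 KO in orange. WT libraries 1 and 2 and Sirt6 KO library 2 are high on both axes, and WT library 3 and Sirt6 KO libraries 1 and 3 are low.

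Several of the lower subunits are known from vessels and their mural cells, and markers of these cells were measured beside them. The 7 endothelial markers summed to 260, 283 and 154 normalized CPM in WT and 187, 186 and 191 in Sirt6 KO. Of the 7, 0 were called by edgeR, where 16.2% of all genes tested were. Pecam1 and Tek had an unadjusted p under 0.05, and DESeq2 called Pecam1 (edgeR log2 fold change -0.70, adjusted p = 0.0765, and 0.0247 in DESeq2). Of the other endothelial markers, Tek had a log2 fold change of -0.50, Emcn -0.16, Tie1 -0.15 and Cdh5 -0.062. Kdr had 0.035 and Cldn5 0.85 (adjusted p = 0.152). The 6 markers of pericytes and smooth muscle summed to 435, 507 and 222 normalized CPM in WT and 219, 235 and 194 in Sirt6 KO. Of these, Rgs5, a pericyte gene, was lower (log2 fold change -1.10, adjusted p = 0.0481), a call lost after the GC correction (-0.82, adjusted p = 0.127) and in 5 of the 6 fits that left out 1 library. Pdgfrb, another pericyte gene, was at 21.9, 21.6 and 14.7 normalized CPM in WT and 25.5, 23.4 and 24.8 in Sirt6 KO, on the other side without overlap, and did not pass (log2 fold change 0.34, adjusted p = 0.182). The rest of this list had log2 fold changes below 0, with -0.71 for Acta2, -0.525 for Tagln, -0.49 for Myh11 and -0.49 for Cspg4. None of these passed, and Tagln had an unadjusted edgeR p under 0.05. In both lists WT library 3 was the lowest WT library, as it was for Itga5, Itga8, Itga9, Itga1, Itga10, Itgav and Itgb3. The 6 Schwann cell markers summed to 27.3 to 73.0 normalized CPM in WT and 25.9 to 38.0 in Sirt6 KO. Fibroblast, tendon, erythroid and adipocyte markers overlapped between the groups in their summed levels. Of these markers edgeR called 0, where 16.2% of all genes tested were called. Dcn (log2 fold change -0.68) and Col1a1 (0.69) of the fibroblast list had an unadjusted edgeR p under 0.05 in opposite directions. DESeq2 called Dcn (adjusted p = 0.0332). The part of these cells in the integrin levels was not tested.

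The other genes of the adhesion pathway were read from a list of 40, of which 39 were tested (Fermt1 was counted at 0 in every library). Of these, 2 were lower in Sirt6 KO (5.13%, against 8.39% of all genes tested) and 0 higher by edgeR. Without adjustment 9 of the 39 had an edgeR p under 0.05, as had 4875 of the 13801 genes tested. DESeq2 called 1 higher (Bcar1, an adaptor of focal adhesions) and 3 lower, where it called 12.5% and 13.0% of all genes. The added lower gene in DESeq2 was Fermt2, a kindlin that activates integrins (edgeR log2 fold change -0.38, adjusted p = 0.0790, and 0.0190 in DESeq2). Col4a1, a chain of the collagen IV network that laminin is tied to, was at 172, 182 and 132 normalized CPM in WT and 123, 97.2 and 98.6 in Sirt6 KO. Its groups were apart, as in 40.0% of all genes tested (log2 fold change -0.61, SE 0.16, adjusted p = 0.0455). Tns3, a tensin that links integrin tails to actin, was at 12.5, 17.4 and 16.1 normalized CPM in WT and 6.92, 10.6 and 8.08 in Sirt6 KO (log2 fold change -0.85, SE 0.20, adjusted p = 0.0321). With 1 library left out, the call on Col4a1 held in 1 of 6 fits (adjusted p up to 0.166) and that on Tns3 in 2 of 6 (up to 0.122). The list's median log2 fold change was -0.084. Of the 11 basement membrane genes 1 was called, and of the 28 adaptors 1, where 16.2% of all genes tested were. Without WT library 3, 8 of the 39 were lower and 3 higher, where 15.7% and 16.7% of all genes were.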

How the data were processed

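RNA-seq of GAS muscle from 3 WT and 3 Sirt6 KO mice was analysed, grouped by the sample labels. The counts per gene were deposited by the authors as whole numbers without scaling between libraries. The FPKM values deposited by the authors are scaled to transcript length and library size, and the TPM values deposited by the authors to a fixed sum within each library. The submitters' processing notes name HISAT2 2.1.0, Bowtie2 2.3.4.1 and StringTie 2.1.3b, while the reporting summary names STAR, and the use of strand in counting is not given in the sources used here. The build is mm10.

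Counts were tested in R 4.3.3 with edgeR 4.0.16 (filterByExpr, TMM, quasi-likelihood test, Benjamini-Hochberg at 0.05), after a test on simulated counts. The common biological coefficient of variation was 24.1%. Alternatives used DESeq2 1.42.0, limma 3.58.1 on quantile-normalized log2 FPKM, other filters, a GC correction (lowess with a span of 0.3 on 96.16% of genes), a replicate block and leaving out each library. Exact permutation tests were two-sided. The p-values measure the spread between 3 animals a group. The genes and lists were chosen with earlier results of these data known. Named with their level in every library were the genes past the threshold and the chains known for muscle fibers; Itgb6 and Lamb3 were added after their values were seen. Coordinates are RefSeq's on GRCm38 (99.7% of genes matched). Overlapping genes, as Pelo within Itga1, may share reads. The long noncoding RNA gene Gm46186 overlaps Itga7 over 14461 bases and was not among the genes counted. Values of 1 laminin gene and 1 marker gene are not reported here.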

Additional observations from a re-analysis of the deposited data

How the results depend on the processing

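In place of the 7 lower laminin and integrin genes, 4 were called with no filter on low counts, 4 with the GC correction and 2 with the GC correction and the replicate block, while adding the slow fiber level as a covariate, an alternative chosen after seeing the data, gave 11. Leaving out 1 library gave 0 to 10 (10 without WT library 3, and 0 without any other). In place of the 3 higher genes, the GC correction with the replicate block gave 1, and leaving out 1 library gave 0 to 4 (0 without Sirt6 KO library 1 or 3, 1 without WT library 1 or 2, 4 without WT library 3, with Itga4 added). The other alternatives gave 5 to 10 lower and 2 or 3 higher genes. The 10 lower were in DESeq2, which called 13.0% of all genes lower and 12.5% higher. With the GC correction 3.63% of all genes were lower and 3.47% higher, and without WT library 3 15.7% and 16.7%. For the other settings of this section the share of all genes called is not given here. Lamc3 was not tested with at least 10 counts in every library. DESeq2 called all 10 of the genes that edgeR called, and Itga6 and Itgb1 were among the other lower genes it called.

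For the 39 adhesion partners, 2 lower became 1 with no filter, 0 with limma at either pseudocount (1 or 0.1), 5 with the slow fiber covariate and 0 to 8 with 1 library left out. The 0 higher became 1 with DESeq2, 2 and 1 with limma at a pseudocount of 1 and 0.1, 2 with the slow fiber covariate and 0 to 3 with 1 library left out. The cause of these changes was not tested.

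None of the genes whose sign turned was called. These were Itgal with the slow fiber covariate (0.046), Itgb5 with the GC correction (-0.025) and, with 1 library left out, Itga3 (-0.59 to 0.081), Lama2 (-0.10 to 0.22), Lamb3 (-0.87 to 0.42), Itgb4 (-0.44 to 0.24), Itgb2 (-0.59 to 0.027) and Itga11 (-0.21 to 0.39). Lamb3, Itgb4 and Itga11 also turned with the covariate (0.39, 0.17 and 0.044).

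Replicate numbers did not pair the libraries. Correlations of same-numbered deviations were -0.11, 0.26 and 0.16, and WT library 1 correlated best with Sirt6 KO library 2. The replicate block gave 5 lower and 3 higher genes. Depth limits Lamc3, with 9 to 24 counts in WT, and Itgal, with 88 counts in all (SE of its log2 fold change 0.69).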
